A study of Mus musculus with 6 samples.

Results

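The 10 genes described here are *Mcph1*, *Aspm*, *Wdr62*, *Cdk5rap2*, *Cenpj*, *Stil*, *Cep135*, *Cep152*, *Cep63* and *Knl1*. In people, recessive loss of each of them causes primary microcephaly, a brain that is small at birth but otherwise largely normal in its layout. They were chosen by name for this role, with earlier results of these data known, and are 10 of the 52230 mouse genes to which the deposited transcripts were assigned. Of the 10, 9 were found under their own symbol in the gene annotation, and *Cenpj* was found under its newer symbol, Cpap. The products of these genes build the centrosome and the mitotic spindle. STIL, CENPJ, CEP135, CEP152 and CEP63 act in the assembly of new centrioles, CDK5RAP2 sits in the material around the centrioles, ASPM and WDR62 act at the spindle poles, KNL1 is the kinetochore scaffold that recruits the spindle checkpoint, and MCPH1 holds back chromosome condensation until mitosis. In the developing forebrain they are known for keeping radial glia, the stem cells that give rise to neurons, dividing on time and with a correctly placed spindle, and at birth the hippocampus still makes granule neurons of the dentate gyrus.

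Both groups were newborn mice (postnatal day 0), and each library was made from the pooled hippocampi of at least 2 pups, 3 libraries labelled *Mov10* Deletion and 3 labelled WT. The *Mov10* Deletion mouse carries a floxed *Mov10* allele removed by Cre recombinase from the *Emx1* locus, bred with a germline *Mov10* heterozygous mutant, and WT is the unmodified C57BL/6 mouse, which has no Cre. *Emx1*-Cre is active in the radial glia of the dorsal forebrain and in the excitatory neurons and glia they form, so cells of other lineages keep the floxed allele. MOV10 is an RNA helicase that acts with the microRNA machinery, and the comparison asks which hippocampal RNAs differ when it is reduced.

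The libraries held between 71400300 and 86207971 estimated counts. *Mov10* itself (chr3:104702140-104725879, GRCm39) was read at 2.45, 2.14 and 2.09 CPM (the count scaled to the library total, with TMM normalization between libraries) in *Mov10* Deletion replicates 1, 2 and 3, and at 4.81, 4.75 and 4.80 CPM in WT replicates 1, 2 and 3. Each *Mov10* Deletion library lay below each WT library, the direction the labels give, with a fold of 0.464 (log2 fold change -1.11, SE 0.10, limma-trend adjusted p = 0.00132). The 10 markers of hippocampal excitatory neurons summed to between 3003 and 3235 CPM in *Mov10* Deletion and between 2764 and 2903 CPM in WT, and none was at 0 in any library. *Mov10* Deletion replicate 1 stood apart in markers of tissue next to the hippocampus: the 5 markers of meninges summed to 134.8 CPM against 37.6 to 63.9 in the other 5 libraries, and the 6 of choroid plexus and ependyma to 94.1 CPM against 40.3 to 63.3. Without that library the same numbers of the 10 genes passed the test described next (2 lower and 1 higher). In that fit 17.1% of all genes were called lower and 17.4% higher. Log2 fold changes without it are given for *Aspm* and *Knl1*, and counts for the related lists as ranges over settings that include this one.

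All 10 genes passed the filter on low values (0.25 CPM in at least 3 libraries), with between 662 and 5862 estimated counts per gene and library. Of the 10, 2 were lower in *Mov10* Deletion (*Aspm* and *Knl1*), 1 was higher (*Cep63*) and 7 did not pass the test (limma-trend with 2 estimated factors of unwanted variation, threshold of 0.05 on p adjusted over all 16745 genes tested). Over all genes tested, 23.8% passed, 11.7% lower and 12.2% higher, so the number of microcephaly genes that passed is close to what a list of 10 genes gives in these data. Without WT replicate 2 these shares were 5.68% lower and 8.35% higher. The median log2 fold change of the 10 genes was 0.024 and that of all genes 0.0052. In CPM, 2 of the 10 had all *Mov10* Deletion libraries below all WT libraries, 2 had them all above, and 6 overlapped, where 41.6% of all genes did not overlap between the groups (21.2% below and 20.4% above). Each of these genes lies on another chromosome than *Mov10*. Since the tissue was sequenced in bulk, fewer dividing cells and less of an RNA in each dividing cell cannot be told apart.

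**Figure D1:**
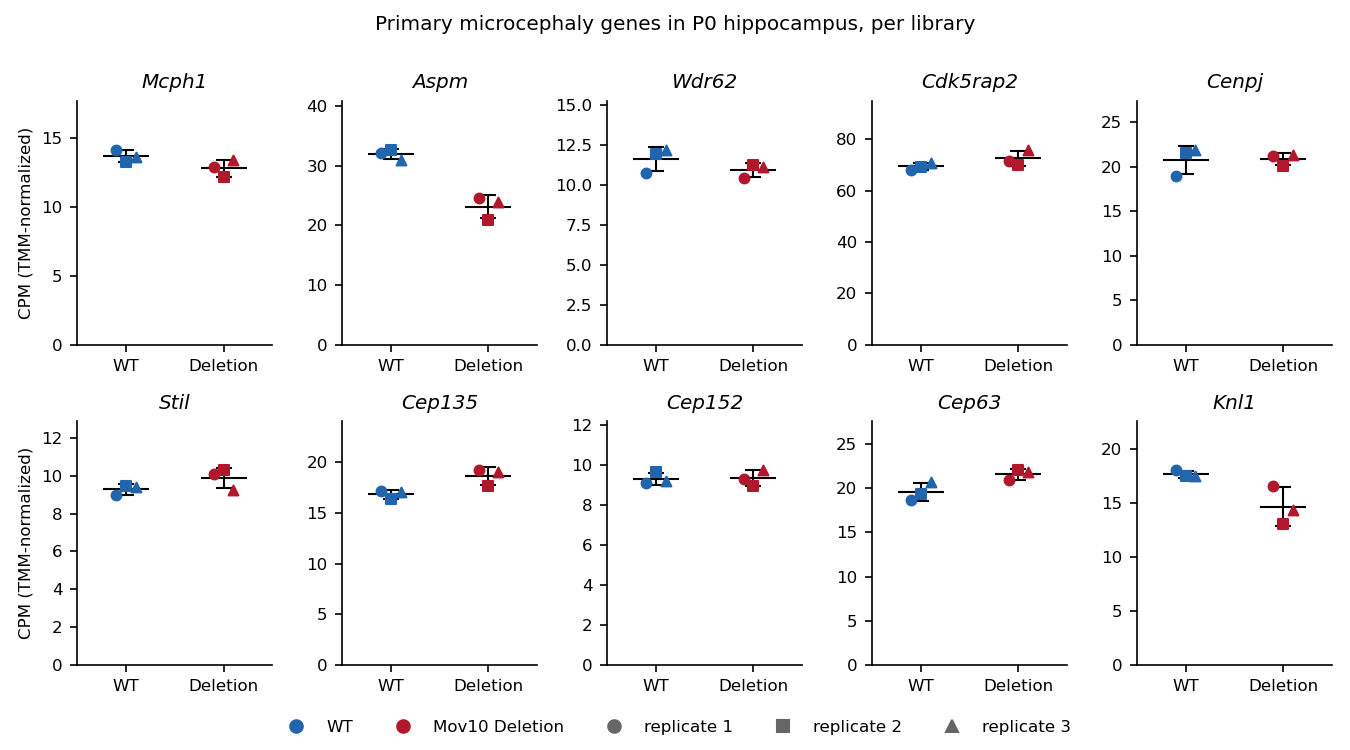
TMM-normalized CPM of each of the 10 genes (vertical axis, starting at 0) in the 3 WT and 3 *Mov10* Deletion libraries, with marker shape giving the replicate number, horizontal dashes the group mean and bars the SD. *Aspm* and *Knl1* lie lower in every *Mov10* Deletion library, *Cep63* and *Cep135* lie higher in every one, and the other 6 genes overlap.

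Per base of transcript, the 10 genes spanned a wide range of levels. In WT the order in TPM, which corrects for transcript length and library total, ran from *Cep63* at 15.8 ± 0.955 (SD, n = 3) through *Cdk5rap2* at 13.4 ± 0.514 and *Cenpj* at 12 ± 0.358 to *Aspm* at 7.44 ± 0.436 and *Mcph1* at 7.27 ± 0.156. Below them came *Knl1* at 6.71 ± 0.0926, *Wdr62* at 6.60 ± 0.726 and *Cep135* at 6.21 ± 0.245 TPM, then *Stil* at 4.81 ± 0.185 and *Cep152* at 2.82 ± 0.119 TPM. The WT libraries of neighbours in this order overlapped for *Aspm* and *Mcph1*, for *Knl1* and *Wdr62*, and for *Wdr62* and *Cep135*, and lay apart for each other pair of neighbours.

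Promoter sequence was examined because many genes of the late cell cycle share short promoter elements. The cell cycle genes homology region (CHR), read here as TTTGAA or TTCGAA, is known as a binding element of the complexes that repress such genes in resting cells and activate them before mitosis. E2F sites (read as TTCCCGC, as TTCGCGC, as TTGCCGC and as TTGGCGC) are known from genes of DNA replication, and CCAAT boxes (CCAAT) from both. Each was searched on both strands from 250 bases before to 50 bases after the RefSeq start, and the RefSeq windows were placed on GRCm39 by exact match. Of the 10 genes, 9 have a window, all but *Mcph1*. A CHR was present in *Aspm*, *Knl1*, *Cdk5rap2* and *Cep152* (19.2% of the 32851 promoters in the table hold one). An E2F site was present in *Cep152*, *Cep63*, *Stil* and *Wdr62* (9.57% of all promoters), and a CCAAT box in *Aspm*, *Cep135*, *Cep152*, *Stil* and *Wdr62* (37.4%). The 4 stretches with a CHR are printed, each of 30 bases on the strand of the gene with the CHR in capitals, because they include both genes that fell and 2 that did not pass the test.
Aspm, chr1:139382505-139382534, plus strand, 6 bases after the start: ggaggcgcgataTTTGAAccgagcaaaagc
Knl1, chr2:118877619-118877648, plus strand, 31 bases after the start: agggcggttagaTTTGAAtacttcagggac
Cdk5rap2, chr4:70328629-70328658, minus strand, 26 bases after the start: cggcggctgcggTTTGAAttccagcggcgc
Cep152, chr2:125467167-125467196, minus strand, 151 bases before the start: actggcgccctcTTCGAAcagccgcgctct
*Aspm* and *Knl1* have the TTTGAA form just downstream of the start and fell in *Mov10* Deletion. *Cdk5rap2* has the same form in a like position, and its log2 fold change was 0.08 and did not pass the test.

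Among the genes of the spindle pole and kinetochore, *Aspm* showed the largest difference of the 10. ASPM gathers at the spindle poles, where it focuses the minus ends of microtubules. *Aspm* (ENSMUSG00000033952.16, chr1:139382486-139421829, plus strand) was read at 24.6, 20.9 and 23.9 CPM in *Mov10* Deletion replicates 1, 2 and 3, against 32.2, 32.7 and 31.0 CPM in WT replicates 1, 2 and 3. The highest *Mov10* Deletion library lay well below the lowest WT library. The means were 23.1 ± 1.95 and 32.0 ± 0.857 CPM (SD, n = 3 each), a fitted fold of 0.714 (log2 fold change -0.49, SE 0.06, 95% interval -0.62 to -0.36, limma-trend adjusted p = 0.00231). Per base, the level fell from 7.44 ± 0.436 to 5.34 ± 0.464 TPM, again with no overlap. Nearly all of these counts came from 1 transcript, Aspm-201, at 96.2% ± 1.02 of the gene's counts in the *Mov10* Deletion libraries and 95.9% ± 1.01 in those of WT. *Aspm* passed the test in each of the 24 other settings tried (other factors, tests, scalings and filters, and each library left out in turn), with log2 fold changes between -0.53 and -0.40. Without *Mov10* Deletion replicate 1 its log2 fold change was -0.52.

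*Knl1* (ENSMUSG00000027326.15, chr2:118877598-118935982, plus strand), whose product carries the docking sites for BUB1 and BUB1B, fell by a smaller amount. It was read at 16.6, 13.0 and 14.4 CPM in *Mov10* Deletion replicates 1, 2 and 3 and at 18.0, 17.5 and 17.5 CPM in WT replicates 1, 2 and 3. The groups did not overlap, but *Mov10* Deletion replicate 1 came close to the WT libraries, and the *Mov10* Deletion libraries were more spread (14.7 ± 1.78 CPM) than the WT libraries (17.6 ± 0.336 CPM, SD, n = 3 each). The fitted fold was 0.816 (log2 fold change -0.29, SE 0.06, 95% interval -0.43 to -0.16, limma-trend adjusted p = 0.012). The size depended on 2 libraries, with a log2 fold change of -0.37 without *Mov10* Deletion replicate 1 and of -0.22 without *Mov10* Deletion replicate 2. The call was lost in edgeR without the factors (adjusted p = 0.0523) and in 5 of the 6 fits without the factors that also left out 1 library (limma-trend adjusted p from 0.0933 to 0.125). In TPM the groups did not overlap either (5.41 ± 0.652 against 6.71 ± 0.0926).

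*Wdr62* (ENSMUSG00000037020.18, chr7:29939559-29979898, minus strand), whose product also sits at the spindle pole and binds Aurora A, did not pass the test. Its 3 *Mov10* Deletion libraries (10.45, 11.24 and 11.16 CPM) overlapped the WT libraries (10.78, 11.95 and 12.22 CPM), with a log2 fold change of -0.05 (95% interval -0.20 to 0.10, limma-trend adjusted p = 0.607). That interval does not reach the value of *Aspm*, but the difference between the genes was not tested. With counts rescaled for transcript length, the direction of *Wdr62* turned (log2 fold change 0.15, adjusted p = 0.208).

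**Figure D2:**
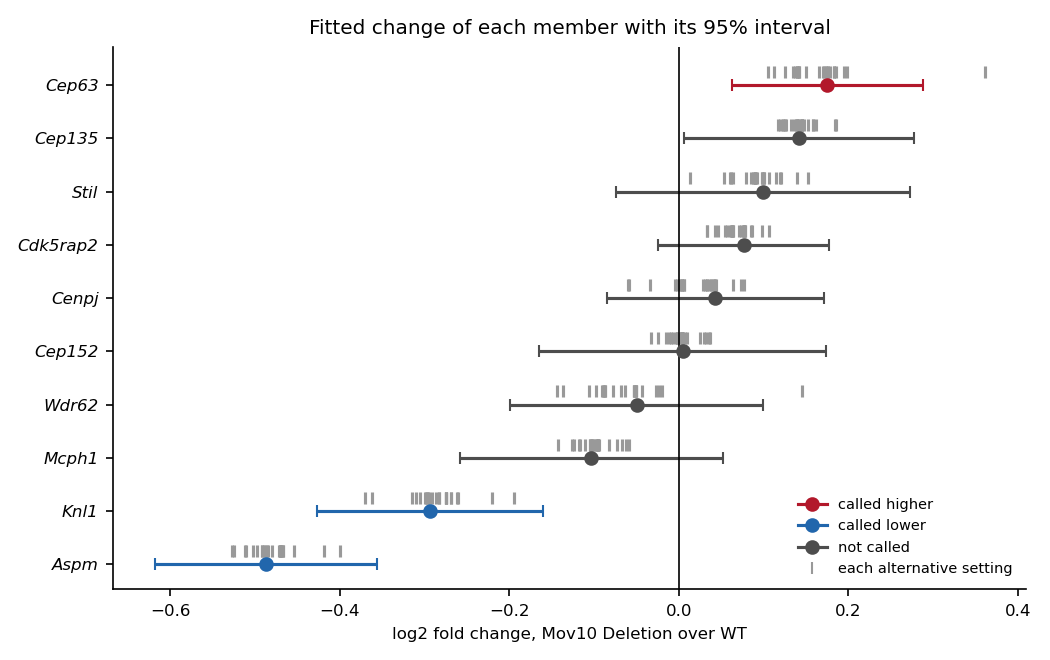
Fitted log2 fold change of each gene, *Mov10* Deletion over WT (horizontal axis), as a point with its 95% interval, and above it 1 grey tick for each of the 24 other settings. Only *Aspm*, *Knl1*, *Cep135* and *Cep63* have intervals that leave out 0, and *Cenpj*, *Cep152* and *Wdr62* have ticks on both sides of 0.

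Among the 5 genes of centriole assembly, 1 rose and 4 did not pass the test. CEP63 forms a ring around the parent centriole with CEP152 and helps to bring it there. *Cep63* (ENSMUSG00000032534.20, chr9:102461787-102503733, minus strand) was read at 20.9, 22.1 and 21.9 CPM in *Mov10* Deletion replicates 1, 2 and 3 and at 18.7, 19.4 and 20.7 CPM in WT replicates 1, 2 and 3. The groups lay apart by a narrow margin, since the lowest *Mov10* Deletion library and the highest WT library were almost level. The means were 21.6 ± 0.626 and 19.6 ± 1.05 CPM (SD, n = 3 each), with a fitted fold of 1.13 (log2 fold change 0.18, SE 0.05, 95% interval 0.06 to 0.29, limma-trend adjusted p = 0.0369). This call held in only 9 of the 24 other settings. It was lost without the factors (adjusted p = 0.117), with 1 factor (adjusted p = 0.0849) and with the replicate number as a block in place of the factors (adjusted p = 0.12), and without WT replicate 1 (adjusted p = 0.248) or WT replicate 2 (adjusted p = 0.131), all in limma-trend. In TPM the gap was wider, at 19.7, 19.6 and 20.3 TPM in *Mov10* Deletion against 14.7, 16.4 and 16.2 TPM in WT. With counts rescaled for transcript length the log2 fold change of *Cep63* was accordingly 0.36 (limma-trend adjusted p = 0.013).

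The wider gap of *Cep63* in TPM went with a different split of its counts over transcripts. The shorter coding transcript Cep63-211 (1791 bases, with a last exon of 159 bases) was read at 8.58, 8.87 and 8.59 CPM in *Mov10* Deletion and at 6.15, 6.70 and 6.65 CPM in WT. Every *Mov10* Deletion library lay above every WT library. It took 40.2% ± 0.882 of the gene's counts in the *Mov10* Deletion libraries, against 33.2% ± 1.24 (SD, n = 3 each) in WT. The longer coding transcripts took smaller shares, Cep63-206 (4180 bases, with a last exon of 2425 bases) at 27.3% ± 1.76 against 33.1% ± 1.14 and Cep63-201 (2696 bases in the files) at 17.5% ± 1.78 against 22.8% ± 1.13, both below in every *Mov10* Deletion library. In CPM these 2 longer transcripts overlapped between the groups, while Cep63-211 lay apart. The shares are Salmon's estimates for reads that several transcripts could have given. Cep63-208, a short fragment annotated as a retained intron, covers the last exon of Cep63-211. It also overlaps the longer last exons annotated for Cep63-206 and Cep63-201. That fragment held 30.1, 20.4 and 30.8 counts in *Mov10* Deletion and 0, 9.25 and 0 counts in WT.

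Transcript usage was tested in the 8 of the 10 genes with at least 2 transcripts above the filter (diffSplice of limma), and none passed the threshold, with 1 at an unadjusted p under 0.05. Over all 10338 genes tested for usage, 5.38% passed. The 1 gene was *Cep63* (adjusted p = 0.0977), which passed without the factors (adjusted p = 0.00225, where 5.85% of all genes passed) and with the replicate block in their place (adjusted p = 0.0331), as well as without WT replicate 2 (adjusted p = 0.00496). For single transcripts, diffSplice compares each transcript's fold change with the average over the gene's other transcripts. Within *Cep63* only the fragment Cep63-208 passed in this way (log2 usage 2.71 above the others, diffSplice adjusted p = 0.0229). Each against the average of the other transcripts, Cep63-211 stood at -0.30 (adjusted p = 0.915), Cep63-206 at -0.93 (adjusted p = 0.519) and Cep63-201 at -1.07 (adjusted p = 0.433). Those averages give the low Cep63-208 as much weight as the abundant transcripts. These values therefore do not measure the share of counts, and the larger share of Cep63-211 was not tested as such. *Mcph1* passed only without WT replicate 2 (adjusted p = 0.0382 against 0.263 with all libraries).

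**Figure D3:**
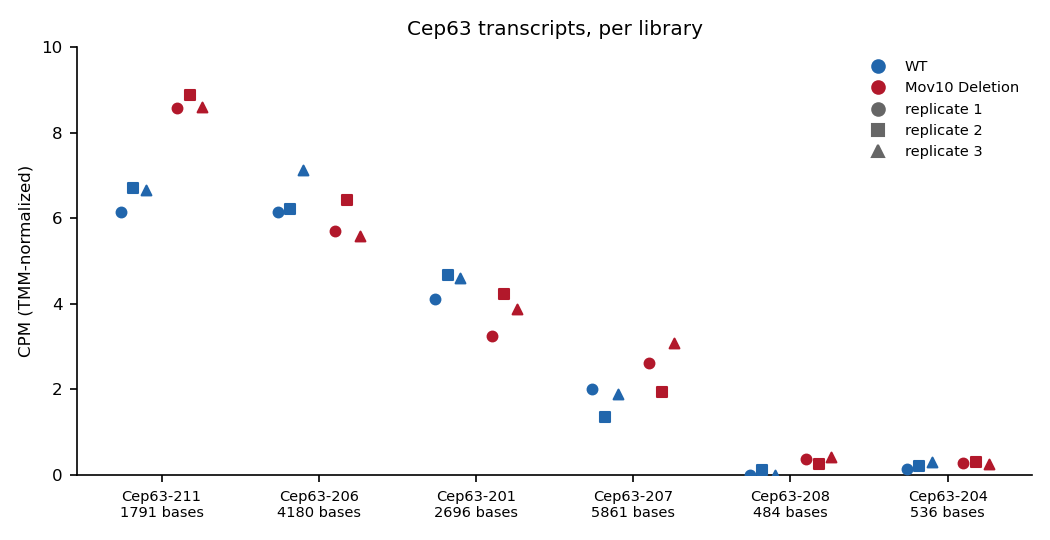
TMM-normalized CPM (vertical axis, starting at 0) of the 6 *Cep63* transcripts above the filter in each library, with their length in the files under their names. Cep63-211 and the low Cep63-208 lie higher in every *Mov10* Deletion library, and the others overlap between the groups.

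*Cep135* (ENSMUSG00000036403.17, chr5:76736531-76794313, plus strand), whose product belongs to the cartwheel and wall of the centriole, came next to *Cep63* in size. It was read at 19.2, 17.6 and 19.1 CPM in *Mov10* Deletion and 17.2, 16.3 and 17.0 CPM in WT, with no overlap. Its log2 fold change of 0.14 (SE 0.06, 95% interval 0.01 to 0.28) did not pass after adjustment (limma-trend adjusted p = 0.116, unadjusted p = 0.0422), and in TPM the groups overlapped (6.84 ± 0.404 against 6.21 ± 0.245). Without *Mov10* Deletion replicate 2 it passed (log2 fold change 0.18, limma-trend adjusted p = 0.0291), in a fit where 17.3% of all genes were called higher.

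The other 3 genes of centriole assembly differed little, and their libraries overlapped between the groups. *Stil* (ENSMUSG00000028718.18), whose product binds PLK4 and starts the new centriole, was at 9.89 ± 0.546 CPM in *Mov10* Deletion and 9.28 ± 0.273 in WT (log2 fold change 0.10, 95% interval -0.07 to 0.27, limma-trend adjusted p = 0.364). *Cenpj* (ENSMUSG00000064128.9), whose product sets centriole length, was at 20.9 ± 0.672 and 20.8 ± 1.57 CPM (log2 fold change 0.04, 95% interval -0.08 to 0.17, limma-trend adjusted p = 0.602). *Cep152* (ENSMUSG00000068394.6), which recruits PLK4, was at 9.34 ± 0.398 and 9.31 ± 0.303 CPM (log2 fold change 0.0047, 95% interval -0.16 to 0.17, limma-trend adjusted p = 0.970). These intervals bound the difference of each gene, on a log2 scale, to less than that seen for *Aspm*.

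The pericentriolar and chromosome condensation genes did not pass the test either. *Cdk5rap2* (ENSMUSG00000039298.18), which ties the gamma-tubulin ring complex to the centrosome, had the most counts of the 10. It was read at 71.5, 70.2 and 75.9 CPM in *Mov10* Deletion and 68.1, 69.2 and 70.9 CPM in WT, where the lowest *Mov10* Deletion library lay below the highest WT library. Its log2 fold change was 0.08 (95% interval -0.02 to 0.18, limma-trend adjusted p = 0.234). It passed only without *Mov10* Deletion replicate 2 (limma-trend adjusted p = 0.0344), where 17.3% of all genes were called higher. *Mcph1* (ENSMUSG00000039842.17) had means of 12.8 ± 0.621 CPM (*Mov10* Deletion) and 13.7 ± 0.432 CPM (WT), with a log2 fold change of -0.10 (95% interval -0.26 to 0.05, limma-trend adjusted p = 0.293).

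The genes that work with these 10 were read from the same fit. These lists too were drawn up with earlier results known, so their counts are given as a description. Over all genes tested in this fit, 11.7% fell and 12.2% rose, the shares to hold beside each list here and below. Among 12 spindle pole partners of ASPM and WDR62, 6 fell, 1 rose and 5 did not pass, with a median log2 fold change of -0.18. The 3 with the smallest p were *Tpx2*, which activates Aurora A on spindle microtubules (log2 fold change -0.49), *Tacc3*, which bundles kinetochore fibres (-0.51), and the mitotic kinase *Plk1* (-0.44). *Dync1h1*, the dynein heavy chain, rose (0.15, adjusted p = 0.0455), although its libraries overlapped between the groups. Among 16 kinetochore partners of KNL1 and checkpoint genes, 7 fell, 0 rose and 9 did not pass (median -0.14). *Bub1b* (log2 fold change -0.42), the checkpoint kinase *Ttk* (-0.42) and *Spc25* of the NDC80 complex (-0.40) led them. The genes that fell spanned -0.51 to -0.20 in the first of these lists, with the value of *Aspm* near the low end. In the second they spanned -0.42 to -0.17, with that of *Knl1* inside. Only genes that passed as lower enter these spans. Over the 24 other settings, 5 to 6 spindle pole partners fell and 0 to 2 rose. The count that rose was 0 in every fit without the factors, with 1 factor and with the replicate block. It was also 0 with length-scaled counts, with no filter, with a filter of 1 CPM and without WT replicate 1 or 2. Of the kinetochore genes, 4 to 8 fell and 0 to 1 rose (1 without *Mov10* Deletion replicate 1 or 2 and without WT replicate 1). With all libraries, no kinetochore gene was higher at an unadjusted p under 0.05 (count of 0 in limma-trend, and 0 passed in edgeR and DESeq2 with the factors).

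In the centriole list 15.8% of genes fell and 5.26% rose, and in the pericentriolar list 9.09% fell and 13.6% rose, against 11.7% and 12.2% of all genes tested. Of 19 other genes of centriole duplication and elongation, 3 fell (*Ppp1r35* at a log2 fold change of -0.45, *Poc1b* at -0.21 and *Cntrob* at -0.15), 1 rose (*Cetn2* at 0.18) (1 to 6 fell and 0 to 2 rose over the other settings), and 15 did not pass, among them *Plk4*, the kinase that starts duplication (-0.07, limma-trend adjusted p = 0.464). Of 22 genes of the pericentriolar material and gamma-tubulin ring, 3 rose (*Crocc*, the ciliary rootlet protein, at 0.41, *Nin* at 0.28 and *Tubg2* at 0.21), 2 fell (*Mzt2* at -0.32 and *Cep57*, a partner of CEP63 and CEP152, at -0.20) and 17 did not pass (1 to 6 rose and 1 to 5 fell over the other settings). Of 8 condensin genes and partners of MCPH1, 2 rose (*Atr* at 0.29 and *Ncapg2* at 0.23), 1 fell (*Smc4* at -0.22) and 5 did not pass (0 to 3 in either direction over the other settings). Of 21 other primary microcephaly genes, 6 fell (*Lmnb1* at -0.22, *Cenpe* at -0.29, *Ncapd2* at -0.20, *Ncaph* at -0.25, *Bub1* at -0.29 and *Kif14* at -0.38), 0 rose and 15 did not pass, with a median of -0.06. Of that list, 1 gene was higher at an unadjusted p under 0.05, 0 were higher in edgeR or DESeq2 with the factors, and 2 to 9 fell and 0 to 2 rose over the other settings (2 rose without *Mov10* Deletion replicate 1, and 1 without *Mov10* Deletion replicate 2 or WT replicate 1). Of those 6, *Cenpe*, *Bub1* and *Kif14* act on the mitotic spindle, *Ncapd2* and *Ncaph* are condensin subunits, and *Lmnb1* is a lamin. *Sass6*, the cartwheel protein that works with STIL and CENPJ, was at 0.02 (limma-trend adjusted p = 0.869).

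**Figure D4:**
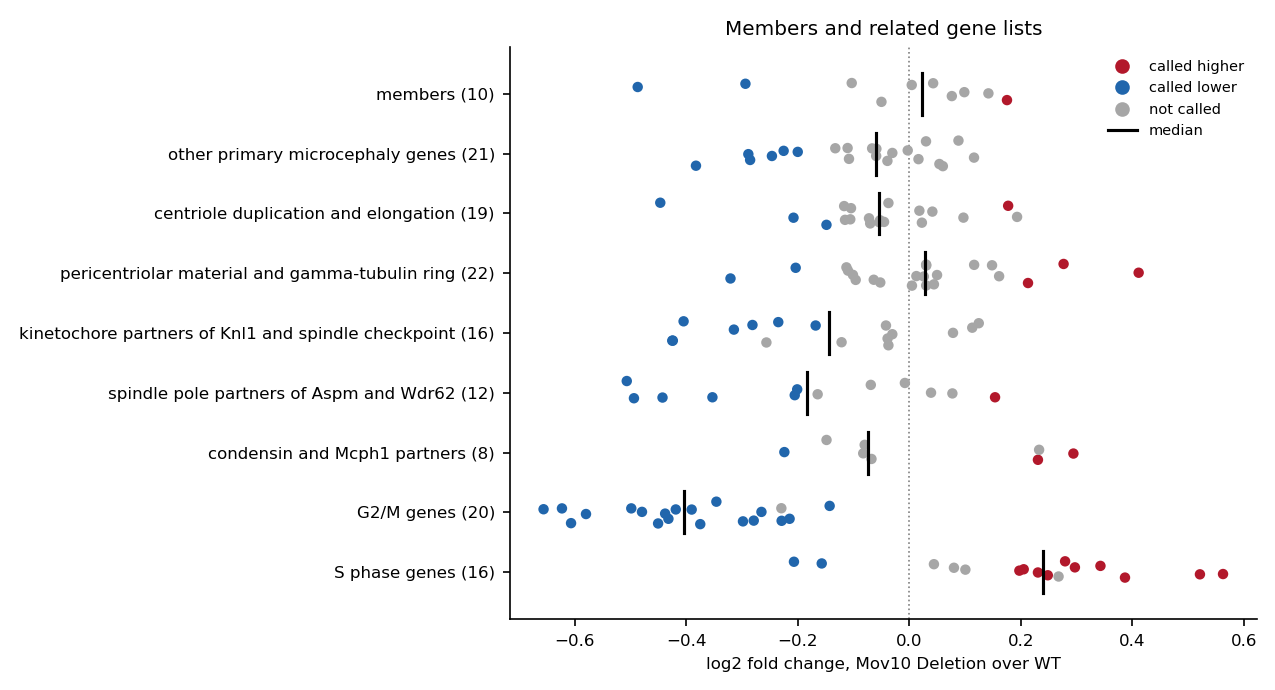
Log2 fold change, *Mov10* Deletion over WT (horizontal axis), of each gene of the 10 and of 8 related lists, with the number tested in brackets, a black line at the list's median and height within a line random. The G2/M genes lie almost entirely below 0 and the S phase genes mostly above, while the 10 genes lie on both sides.

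Genes of the cell cycle at large were compared because the 10 are known for their part in cell division. Of 20 genes of G2 and mitosis, 19 fell, 0 rose (0 in each of the 24 other settings and 0 at an unadjusted p under 0.05 in limma-trend) and 1, *Birc5*, did not pass (log2 fold change -0.23, limma-trend adjusted p = 0.0856), with a median of -0.40. *Cdc20*, the activator of the anaphase-promoting complex (-0.66), its partner *Ube2c* (-0.61), *Cenpf* (-0.42) and *Ccna2* (-0.39) had the smallest p of that list. Over the 24 other settings 13 to 20 of the list fell. Its summed level was 603, 544 and 534 CPM in *Mov10* Deletion replicates 1, 2 and 3 and 682, 715 and 735 CPM in WT replicates 1, 2 and 3, lower in every *Mov10* Deletion library. Of 16 genes of S phase, 10 rose, 2 fell (*Mcm7* at -0.21 and *Slbp* at -0.16) and 4 did not pass, with a median of 0.24, and *Ccne2* (0.56), *Uhrf1* (0.34), *Mcm3* (0.30) and *Mcm2* (0.25) had the smallest p (5 to 12 rose and 1 to 2 fell over the other settings). A CHR was present in the promoters of 12 of 15 G2/M genes that have a window and of 2 of 13 S phase genes, and an E2F site in 4 of 15 and 8 of 13.

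The 10 genes were also read against the summed G2/M level of the same library, a ratio chosen after the values were seen. Its denominator was lower in *Mov10* Deletion (560.1 ± 37.2 against 710.6 ± 26.5 CPM, SD, n = 3 each), so a gene with level CPM stands higher in this ratio, as *Cep152* did at 1.275 of the WT value. *Aspm* stood at 4.08%, 3.85% and 4.48% of that sum in *Mov10* Deletion and at 4.73%, 4.58% and 4.22% in WT, and *Knl1* at 2.75%, 2.40% and 2.69% in *Mov10* Deletion and at 2.64%, 2.44% and 2.37% in WT. These 2 genes overlapped between the groups. The other 8 stood higher in every *Mov10* Deletion library than in any WT library, by ratios of the means from 1.19 for *Mcph1* to 1.41 for *Cep63* and for *Cep135*. The share of all genes that stand apart in this ratio was not counted, so this is not read as particular to these 8. The summed S phase level was itself higher in every *Mov10* Deletion library (549.9 ± 32.0 against 507.6 ± 11.9 CPM, SD, n = 3 each). A gene with level CPM therefore stands lower against it. In that ratio *Aspm* (0.668 of the WT ratio), *Knl1* (0.765) and *Mcph1* (0.866) stood lower in every *Mov10* Deletion library, and the other 7 overlapped. In CPM alone *Mcph1* overlapped between the groups. The share of all genes that stand apart in this ratio was not counted either.

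**Figure D5:**
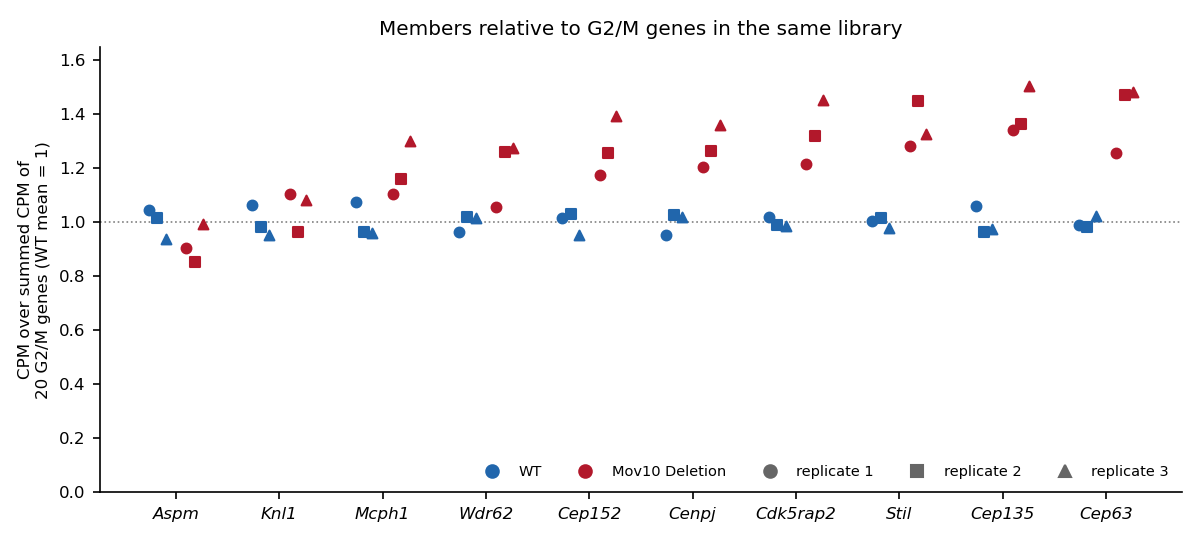
CPM of each gene divided by the summed CPM of 20 G2/M genes in the same library and scaled to a WT mean of 1 (vertical axis, starting at 0), in order of the ratio of the group means. *Aspm* and *Knl1* overlap between the groups, and the other 8 genes lie higher in every *Mov10* Deletion library, where the denominator was lower.

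The profiles nearest to each gene over the 6 libraries included genes of mitosis for *Aspm* and *Knl1*. Nearness was the root mean square difference of log2 CPM after centring each gene on its own mean, taken over genes whose mean reached 1 CPM, and is given as a description. Nearest to *Aspm* were *Tpx2* (0.048, against a median of 0.259 over all genes), the transcription factor gene *Hbp1* (0.0513) and *Samd4* (0.0527). Nearest to *Knl1* were the noncoding RNA *B230354K17Rik* (0.0356, median 0.189), *Gas2l3*, a cytoskeletal linker of dividing cells (0.0409), and the mitotic kinesin *Kif20b* (0.0416). *Cep63* lay nearest to *Tprkb* (0.00902, median 0.137), *Wdr4* and *Adnp2*, and *Cep135* nearest to *Pde7a* (0.00964, median 0.136), *Ccnl1* and *Gad2*. The nearest genes of the other 6 were *Txlna* for *Mcph1*, *Slc7a6* for *Wdr62*, *Dclre1b* for *Cdk5rap2*, *Pex7* for *Cenpj*, *Vps29* for *Stil* and *Mrgbp* for *Cep152*.

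Markers of the cells in which the 10 genes act moved unevenly. Of 10 markers of radial glia, 3 rose (*Fabp7* at a log2 fold change of 0.48, *Ptprz1* at 0.42 and *Hes5* at 0.46), 2 fell (*Vim* at -0.14 and *Pax6* at -0.17) and 5 did not pass, and their summed level lay between 1949 and 2084 CPM in *Mov10* Deletion and between 1666 and 1848 CPM in WT. Of 6 markers of intermediate progenitors, 0 passed in either direction (1 higher and 1 lower at an unadjusted p under 0.05 in limma-trend, and 1 higher in edgeR), with a summed level of 316.3 to 352.5 CPM in *Mov10* Deletion and 324.3 to 346.6 CPM in WT. Of 7 astrocyte markers, 3 rose, *Aqp4* (1.14), *Gfap* (0.64) and *S100b* (0.80), with a summed level of 1008 to 1067 CPM against 851 to 949 CPM. The summed levels of radial glia and astrocyte markers, and of the excitatory neuron markers given above, were higher in every *Mov10* Deletion library, where *Aspm* and *Knl1* stood lower. Of single genes, 4 of the 10 radial glia, 3 of the 7 astrocyte and 1 of the 10 excitatory neuron markers were above WT in every *Mov10* Deletion library. Below WT in every one were 2 radial glia, 0 astrocyte and 1 excitatory neuron markers. Over all genes tested, 20.4% were above in this way and 21.2% below. In DESeq2 with the factors, 4 radial glia markers rose and 1 fell, and 2 astrocyte markers rose. No marker of the lists for radial glia, intermediate progenitors and astrocytes was at 0 in any library. Their part in the differences of the 10 genes was not tested.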

How the data were processed

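Poly(A)-selected, stranded libraries from P0 hippocampi were quantified by the authors with Salmon 1.4.0 on GRCm39. The deposited values are estimated counts, not normalized, and TPM, which the authors' tool scaled for effective length and depth, with the effective length of each transcript (per the file headers, in bases). For the annotation release behind them, the sources used here give none. Transcripts were matched without version to GENCODE M39 (137570 of 139225, leaving out 0.589% to 0.6% of counts) and summed per gene. Of 45 transcripts of the 10 genes with at least 3 counts in a library, 11 have another length in M39 than in the files, so exon sizes are given only for transcripts of equal length. *Cenpj* was matched through a RefSeq synonym.

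Genes with 0.25 CPM in at least 3 libraries (16745) were tested as in the study's methods, by TMM (edgeR 4.0.16), log2 CPM (prior count 2) and limma-trend (limma 3.58.1, R 4.3.3) on genotype and 2 factors, with Benjamini-Hochberg adjustment, two-sided. The study's methods name RUVSeq but neither its function nor its control genes. RUVs with all tested genes as controls was chosen here and written out in R. The fit left 2 residual degrees of freedom (5.77 prior), and its p-values measure the spread between pools that the factors leave. Transcript usage was tested with diffSplice. edgeR's quasi-likelihood test and DESeq2 1.42.0, on rounded counts, were alternatives. The code was tested on simulated data. All 10 genes are named; of each other list, those 3 with the smallest p (4 for G2/M and S phase) were to be named, and further list genes, among them *Dync1h1*, *Cep57*, *Tubg2*, *Cetn2*, *Plk4* and *Sass6*, were added once their values had been seen. The members and lists were chosen with earlier results of these data known. RefSeq promoter windows are from a GRCm38.p6 table. Lists of other cell types served as checks, and some list genes are not reported here.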

Additional observations from a re-analysis of the deposited data

How the results depend on the processing

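With 3 pools per genotype, small changes rest on the factors. *Aspm* passed the test in each of the 24 other settings. The count of genes called (3992) was 2334 without WT replicate 2 and lay between 2334 and 5902 over the 6 fits that left out 1 library, and, without factors as well (added after seeing the data, since each otherwise had 1 residual degree of freedom), was 3036, 2363 and 2020 without *Mov10* Deletion replicate 1, 2 or 3 and 2924, 1801 and 1768 without WT replicate 1, 2 or 3. The 2 genes called lower became 1 in edgeR without factors, and 1 to 2 without 1 library and factors. The 1 called higher became 0 without factors, with 1 factor, with the replicate block and with no filter. It also became 0 in edgeR without factors and in DESeq2 with and without factors. Over fits without 1 library that count lay between 0 and 3. It was 3 without *Mov10* Deletion replicate 2, where 17.3% of all genes were called higher and 18.3% lower. The count for transcript usage (0) became 1 without factors, 1 with the replicate block, and 0 to 2 without 1 library. The cause was not tested.

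Directions turned for *Wdr62* (0.146) and *Cenpj* (-0.0337) with length-scaled counts, for *Cep152* with length-scaled counts (-0.00365), no filter (-0.0025) and a filter of 1 CPM (-0.00226), and on leaving out 1 library, over which *Cenpj* ran from -0.0584 to 0.0775 and *Cep152* from -0.0323 to 0.0369, or without factors too (*Cenpj* at -0.0597, -0.00391 and -0.00256, *Cep152* at -0.0242, -0.0153 and -0.00646), none of them called. Deviations of same-numbered libraries had r across genes of 0.0114, -0.0711 and 0.0432, and those of other pairs ran from -0.095 to 0.103. With 3 libraries per group these values cannot show whether the numbers mark pairs, which the labels do not say. The replicate block gave 3425 calls in all. Upper-quartile normalization gave 2238 genes higher and 1435 lower, against 2038 and 1954. The 10 genes had 662 or more counts per gene and library, and at the low end counting error adds to the spread between pools.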

Other observations

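Markers of other cell types were read from the same fit (limma-trend, adjusted over all genes). Of 10 markers of hippocampal excitatory neurons, *Zbtb20* rose (log2 fold change 0.29) and 9 did not pass, and 0 passed in DESeq2 with the factors. Of 8 interneuron markers, *Sst* rose (0.31), *Dlx1* fell (-0.25) and 6 did not pass. Of 7 microglia markers, 0 passed in either direction (0 at an unadjusted p under 0.05, and 0 in edgeR and DESeq2 with the factors). Of 8 endothelial and pericyte markers, *Rgs5* rose (0.20), the tight junction gene *Cldn5* (-0.38) and *Pdgfrb* (-0.17) fell and 5 did not pass. Of 6 erythroid genes, *Hbb-bt* (-0.62), *Slc4a1* (-1.02) and *Hba-a1* (-0.32) fell and 3 did not pass. *Sst*, *Pdgfrb* and *Hba-a1* overlapped between the groups in CPM, and in DESeq2 with the factors 1 endothelial or pericyte marker and 2 erythroid genes fell.

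*Ttr*, the main transcript of choroid plexus, was at 45.6 CPM in *Mov10* Deletion replicate 1, 0.786 and 3.75 CPM in replicates 2 and 3, and 13.5, 11.6 and 5.10 CPM in WT replicates 1, 2 and 3. The fit with factors called it lower (log2 fold change -1.31, limma-trend adjusted p = 0.0123) although its groups overlap and the highest library is a *Mov10* Deletion library. The other 5 markers of choroid plexus and ependyma did not pass (of all 6, 1 was higher and 3 lower at an unadjusted p under 0.05, and 1 was lower in edgeR and in DESeq2). Of 5 meningeal markers, *Lum* rose (0.71), *Foxc1* fell (-0.31) and 3 did not pass. Both overlapped between the groups, *Mov10* Deletion replicate 1 was the highest library for each (3.32 and 8.61 CPM), and neither passed in DESeq2 with the factors.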
